A study of Mus musculus with 6 samples.

Results

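The genes described here are 10 enzymes and carriers of the muscle energy supply, chosen by name, in C2C12 cells, a mouse myoblast line that fuses into myotubes when serum is lowered. They are the creatine kinases Ckm, Ckb and Ckmt2, the glycolytic enzymes Eno3 and Pgam2, the glycogen-breakdown enzymes Pygm and Phkg1, the AMP deaminase Ampd1, the fatty acid carrier Fabp3 and the glucose transporter Slc2a4. Of 11844 genes with a listed transcript, 4 were members (Ckm, Ckb, Eno3 and Pygm). The other 6 had no transcript among those listed and were not analysed here. RNA of 3 libraries from cells transfected with a negative control siRNA (siNC) was compared with that of 3 libraries from cells transfected with an siRNA against CNN3 (siCNN3), calponin 3, an actin-binding protein. All 6 are labelled C2C12 and mouse myotube, the cells were differentiated in horse serum, and their labels give neither the harvest time nor which CNN3 siRNA was used. For differentiation experiments the study's methods describe a repeated transfection and a later harvest than for proliferation, and they describe the sequenced cells as differentiating myoblasts. The line is a cell line in culture, the labels do not say whether replicates were separate cultures, and p-values therefore measure only the spread between these libraries, which may be technical.

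Contracting muscle can spend ATP faster than respiration restores it. Creatine kinases transfer phosphate from phosphocreatine to ADP, phosphorylase and its kinase release glucose units from glycogen, and glycolysis turns them into ATP. Several of these steps are carried out by a muscle form of the enzyme that replaces a form found in most tissues: Ckm takes over from Ckb, Eno3 from Eno1, Pygm from Pygb, and Slc2a4 (GLUT4) joins Slc2a1 (GLUT1). The comparison asks how the RNA of these forms differs after knockdown of CNN3.

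Because the forms are relatives, reads could be shared between them. The coding sequences of Ckm and Ckb, both 1143 bases long, were identical at 868 aligned bases (75.9%), and the longest run they share is 20 bases. Their most similar stretch of 60 bases within 1 exon (exon 5 of each, coding bases 550 to 609) has 54 identical bases, and it is shown with the differing bases in capitals because it is the place where reads of the pair are hardest to tell apart. The Ckm stretch lies at chr7:19416787-19416846 on the plus strand and the Ckb stretch at chr12:111670917-111670976 on the minus strand (GRCm38, GENCODE M21 transcripts).
Ckm: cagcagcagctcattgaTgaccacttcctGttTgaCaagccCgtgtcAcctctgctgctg
Ckb: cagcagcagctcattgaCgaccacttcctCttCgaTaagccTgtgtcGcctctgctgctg

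The phosphorylases Pygm and Pygb were identical at 77.4% of aligned coding bases and share a run of 62 bases. The stretch of 60 bases in their exon 8 (coding bases 865 to 924) is the same in both, at chr19:6388746-6388805 for Pygm and chr2:150814995-150815054 for Pygb, both on the plus strand. It is shown because a read from within it matches both genes.
Pygm and Pygb: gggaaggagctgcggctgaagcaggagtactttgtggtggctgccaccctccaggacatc

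Eno3 and Eno1 were identical at 76.7% of coding bases, with a longest shared run of 20 bases.

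The authors deposited FPKM, a fragment count scaled by transcript length and by mapped fragments, for Ensembl transcripts, and transcripts of a gene were summed. Values of a gene are given below in the order of replicates 1, 2 and 3. Read numbers are not given, so the depth is unknown, and an FPKM of exactly 0 can be a failed estimate. The limma test, with Benjamini-Hochberg adjustment, was run on log2(FPKM + 1) of genes averaging 0.5 FPKM or more, and called those whose adjusted p fell below 0.05. On this scale changes of genes with few FPKM look smaller than they are. Of 11602 genes tested, 201 were called higher and 39 lower in siCNN3. Cnn3 itself stood at 62.8, 61.4 and 62.8 FPKM in the siNC libraries, against 19.0, 39.2 and 25.6 FPKM with siCNN3, or 44.8% of the siNC mean, and was not called (a log2 difference of -1.19, standard error 0.242, adjusted p = 0.0665 from limma). In RNA of whole cultures, fewer cells of a type and less RNA per cell cannot be told apart. The libraries siNC replicate 1 and siCNN3 replicate 3 had the highest values of their groups for some glycolytic genes, but not for all. Of 20 genes siNC replicate 1 was the highest siNC library for 9, as siNC replicate 3 was for another 9, siCNN3 replicate 3 was the highest siCNN3 library for 16, and for 8 genes siNC replicate 1 and siCNN3 replicate 3 were both the highest, while siNC replicate 1 was the lowest of its group for Eno1. Gpi1, the isomerase of glucose 6-phosphate, stood at 283.6, 119.6 and 229.1 FPKM in the siNC libraries, against 124.4, 173.8 and 348.3 FPKM with siCNN3, so that siNC replicate 3 lay near siNC replicate 1. Both libraries also had the highest Slc2a1 and Gapdh of their groups. After these values were seen, the counts over all genes, over the members and over all related genes were also made without siNC replicate 1 and siCNN3 replicate 3, where 580 genes were called higher and 301 lower.

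None of the 3 tested members was called by limma (0 of 3, where 2.07% of all tested genes were called in either direction and 0.336% were called lower). At an unadjusted p below 0.05, 1 member was lower (Ckb), where 6.14% of all tested genes were lower at that p. The median log2 fold change of the 3 tested members was -0.09, and it was 0.03 over all tested genes. With 3 members the median is the value of 1 gene. With all libraries that gene was Pygm, which averaged 0.554 FPKM, little above the limit of 0.5. The members' median was -0.21 without siNC replicate 1, -0.013 without siNC replicate 2, -0.17 without siCNN3 replicate 2, 0.0325 without siCNN3 replicate 3, -0.17 with quantile normalization and -0.25 with a pseudocount of 0.1, so that its sign changed with 1 library. Without siNC replicate 1 and siCNN3 replicate 3, 1 member was called, again Ckb, where 7.59% of all genes tested in that fit were called in either direction and 2.59% were called lower.

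**Figure D1:**
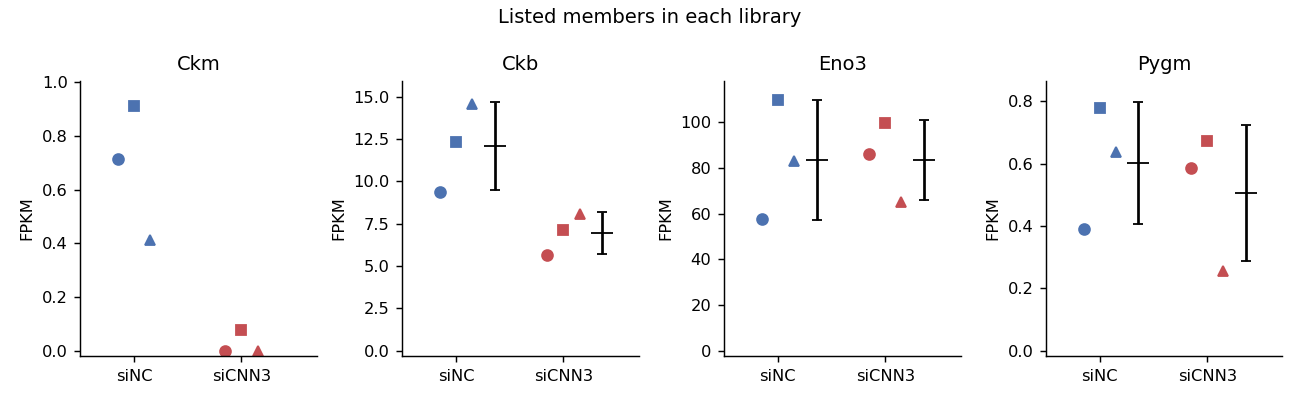
FPKM of the 4 listed members in each library. Circles, squares and triangles are replicates 1, 2 and 3 of siNC (blue) and siCNN3 (red), and black bars are the mean ± SD of 3 libraries, left out for Ckm because 2 of its values are 0. All siCNN3 values of Ckm and Ckb lie below all siNC values, while those of Eno3 and Pygm overlap.

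Ckb, the cytosolic creatine kinase of brain and of proliferating cells, lies on chromosome 12 from 111669361 to 111672338 on the minus strand, and 1 of its 5 annotated transcripts is listed, with 8 exons. It stood at 9.37, 12.3 and 14.6 FPKM in the siNC libraries, against 5.63, 7.13 and 8.07 FPKM with siCNN3. All siCNN3 libraries were below all siNC libraries, as they were for 9.34% of all tested genes. The siNC mean of 12.1 ± 2.62 FPKM (SD, n = 3) compared with 6.94 ± 1.23 FPKM (SD, n = 3) for siCNN3, or 57.4% of the siNC mean. On the log2 scale siCNN3 minus siNC came to -0.71 (standard error 0.202, 95% interval from -1.19 to -0.23), and Ckb was not called (adjusted p = 0.143 from limma). The two-sided exact permutation p was 0.1, the smallest that 3 libraries against 3 allow. The difference was negative in all 16 alternatives, from -0.97 to -0.58. Those of filter, spread, block and single transcripts leave it at -0.71 by construction. Leaving out libraries could not turn its sign, because the groups did not overlap. The adjusted p of limma ranged from 0.0463 to 0.431 and passed the threshold in 1 alternative, the one without siNC replicate 1 and siCNN3 replicate 3 (-0.97, adjusted p = 0.0463), which was chosen after the data were seen.

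Ckm, the cytosolic creatine kinase of skeletal and heart muscle, was under 1 FPKM in all 6 libraries. The gene lies on chromosome 7 from 19404776 to 19422841 on the plus strand. The siNC libraries had 0.714, 0.911 and 0.414 FPKM, while in siCNN3 it was listed at 0 in replicates 1 and 3 and at 0.0760 FPKM in replicate 2. The siNC libraries were all above the siCNN3 libraries. No fold change is given, because 2 libraries are at 0. The mean of 0.353 FPKM over the 6 libraries was below the limit of 0.5, so Ckm was not among the genes tested. Without that limit the difference on log2(FPKM + 1) was -0.70 (standard error 0.169, 95% interval -1.10 to -0.30) and was not called (adjusted p = 0.101 from limma).

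The Ckm value covers 1 of 3 annotated transcripts. The listed one, Ckm-203, has 8 exons and 2742 nucleotides with a coding sequence of 1143 bases. Another, Ckm-201, has 7 exons and 1235 nucleotides, lacks exon 2 and has an annotated coding sequence of 936 bases. It is not listed, and its level was not analysed here. The coding part of exon 2 that sets the listed transcript apart runs over 193 bases at chr7:19414138-19414330 on the plus strand, shown with the start codon in capitals.
Ckm exon 2: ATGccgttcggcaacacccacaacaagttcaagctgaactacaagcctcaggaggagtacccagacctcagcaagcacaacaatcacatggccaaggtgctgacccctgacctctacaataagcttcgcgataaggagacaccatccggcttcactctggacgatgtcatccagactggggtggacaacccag

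The annotation also places the gene A930016O22Rik within the Ckm locus. Whether the counting used strand is not given in the sources used here, so reads of overlapping genes could not be told apart.

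Ckm made up 7.09%, 6.87% and 2.76% of the summed FPKM of Ckm and Ckb in the siNC libraries and 0%, 1.06% and 0% in the siCNN3 libraries. Among the listed transcripts, Ckb was thus the more abundant cytosolic creatine kinase RNA in all 6 libraries. The unlisted Ckm-201 is not in this share. The share was lower by 5.22 percentage points in siCNN3 on average, and the groups did not overlap (two-sided exact permutation p = 0.1, the smallest possible). With 1 FPKM added to each gene the share differed by -0.103 percentage points, and the groups overlapped (14.2%, 12.5% and 8.32% with siNC, against 13.1%, 11.7% and 9.93% with siCNN3). The share rests on values of Ckm under 1 FPKM.

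Eno3, the muscle form of enolase, which makes phosphoenolpyruvate late in glycolysis, was the most abundant listed member, and a difference between the groups was not detectable. It lies on chromosome 11 from 70657202 to 70662513 on the plus strand, and 6 of its 8 annotated transcripts are listed. It stood at 57.6, 109.8 and 83.0 FPKM in the siNC libraries, against 85.9, 99.8 and 65.1 FPKM with siCNN3. The highest and the lowest values were both in siNC, and the groups overlapped. The siNC mean of 83.5 ± 26.1 FPKM (SD, n = 3) compared with 83.6 ± 17.5 FPKM (SD, n = 3) for siCNN3. On the log2 scale siCNN3 minus siNC came to 0.03 (standard error 0.260), with an adjusted p of 0.970 from limma and a two-sided exact permutation p of 0.9. Its 95% interval, from -0.59 to 0.64, covers differences in both directions. The sign changed in 6 of 15 alternatives, among them median-of-ratios scaling (-0.0076), quantile normalization (-0.0787) and the fit without siNC replicate 1 (-0.21). The lowest Eno3 of each group was in siNC replicate 1 and siCNN3 replicate 3, which had the highest Gpi1. Without both libraries, a choice made after the data were seen, the log2 difference was -0.0441 (adjusted p = 0.882 from limma). The part of high Gpi1 in the Eno3 result was not tested.

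The Eno3 transcripts varied between libraries of the same group. Eno3-201, Eno3-202 and Eno3-206 share a coding sequence of 1302 bases and differ at the 5′ end, since Eno3-206 starts at 70657796 and the others start at 70657202 and 70657204. Eno3-206 stood at 45.5, 88.6 and 38.0 FPKM in the siNC libraries, against 42.7, 77.2 and 52.5 FPKM with siCNN3. The transcripts from the upstream start (Eno3-201, Eno3-202 and Eno3-205) summed to 11.4, 20.4 and 44.2 FPKM in siNC and to 42.0, 22.1 and 12.1 FPKM in siCNN3. They made up 19.8%, 18.6% and 53.2% of Eno3 in the siNC libraries and 48.9%, 22.2% and 18.6% in the siCNN3 libraries. The share was high in 1 library of each group, siNC replicate 3 and siCNN3 replicate 1, and between 18.6% and 22.2% in the other 4. Its mean was 30.5 ± 19.7% (SD, n = 3) in siNC and 29.9 ± 16.5% (SD, n = 3) in siCNN3 (two-sided exact permutation p = 0.9). FPKM of transcripts that share most of their exons are estimates, and how they were divided is not given in the sources used here.

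**Figure D2:**
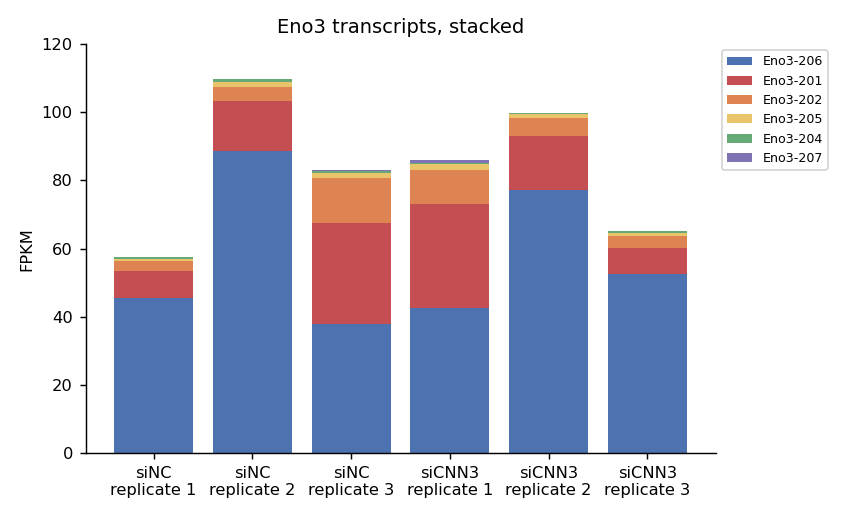
FPKM of the 6 listed Eno3 transcripts, stacked for each library. Blue is Eno3-206, which starts downstream, and red, orange and yellow are Eno3-201, Eno3-202 and Eno3-205, which start upstream. The upstream part is 53.2% of the bar in siNC replicate 3 and 48.9% in siCNN3 replicate 1, and between 18.6% and 22.2% in the other 4 libraries.

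Pygm, muscle glycogen phosphorylase, was also under 1 FPKM in all 6 libraries. It lies on chromosome 19 from 6384399 to 6398459 on the plus strand, and 1 of its 4 annotated transcripts is listed, with 20 exons. It stood at 0.391, 0.777 and 0.636 FPKM in the siNC libraries, against 0.588, 0.672 and 0.257 FPKM with siCNN3. The groups overlapped, and the lowest library of each was again siNC replicate 1 and siCNN3 replicate 3. The siNC mean of 0.601 ± 0.195 FPKM (SD, n = 3) compared with 0.506 ± 0.219 FPKM (SD, n = 3) for siCNN3. On the log2 scale siCNN3 minus siNC came to -0.09 (standard error 0.189, 95% interval from -0.54 to 0.36), with an adjusted p of 0.847 from limma, and the exact permutation p was 0.6. Pygm reads from the run shared with Pygb, which was at a higher level, may have been divided between both genes.

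Eno1 and Pygb, the forms of most tissues, were more abundant than Eno3 and Pygm in all 6 libraries. Eno1, the enolase of most tissues, averaged 498.6 ± 28.5 FPKM (SD, n = 3) in the siNC libraries and 524.9 ± 48.3 FPKM (SD, n = 3) with siCNN3, while Eno2, the neuronal form, was at 5.84 ± 2.36 and 5.99 ± 5.36 FPKM. Eno1b, a near-identical copy of Eno1, is listed as well, at 196.7 ± 12.3 FPKM (SD, n = 3) for siNC and 209.7 ± 21.2 FPKM (SD, n = 3) for siCNN3, and the division of reads between both makes the Eno1 level uncertain. Eno3 made up 10.7%, 18.1% and 13.4% of the sum of Eno1, Eno2 and Eno3, without Eno1b, in siNC and 14.2%, 17.1% and 9.96% in siCNN3, a mean difference of -0.331 percentage points (two-sided exact permutation p = 0.8). Its sign turned with 1 library, from -2.02 points without siNC replicate 1 to 1.67 points without siNC replicate 2. With Eno1b in the sum the share was 10.6 ± 2.91% (SD, n = 3) in siNC and 10.3 ± 2.77% (SD, n = 3) in siCNN3. Pygb, the phosphorylase first described in brain, averaged 19.3 ± 2.13 FPKM (SD, n = 3) in the siNC libraries and 18.0 ± 1.00 FPKM (SD, n = 3) with siCNN3. Pygm made up 2.20%, 3.93% and 2.86% of the sum with Pygb in siNC and 3.37%, 3.54% and 1.35% in siCNN3, a mean difference of -0.241 percentage points (two-sided exact permutation p = 0.8). That difference was -0.639 points without siNC replicate 1, 0.460 points without siCNN3 replicate 3 and 0.0588 points with 1 FPKM added to each gene. Pygl, the liver form, was not listed. For both enzymes the shares of the groups overlapped.

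**Figure D3:**
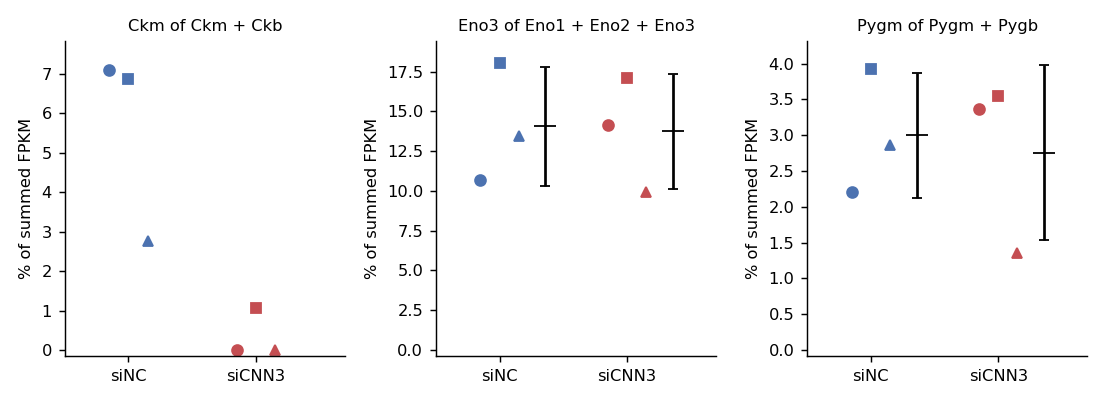
Share of the muscle form in the summed FPKM of the genes named above each panel, in percent, for each library. Eno1b is not in the sum. Circles, squares and triangles are replicates 1, 2 and 3 of siNC (blue) and siCNN3 (red), and black bars are the mean ± SD of 3 libraries, left out for Ckm. The Ckm share is 2.76% to 7.09% in siNC and at most 1.06% in siCNN3, while the shares of Eno3 and Pygm overlap.

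Relatives of members that were not listed are given for their own level only. Pgam1, the phosphoglycerate mutase of most tissues and relative of Pgam2, averaged 294.9 ± 17.9 FPKM (SD, n = 3) in the siNC libraries and 291.7 ± 37.2 FPKM (SD, n = 3) with siCNN3. Phkg2, the catalytic subunit of phosphorylase kinase in liver and testis and relative of Phkg1, was at 3.99 ± 2.74 and 5.59 ± 2.04 FPKM. The AMP deaminases Ampd2 and Ampd3 were at 6.78 ± 0.203 and 47.7 ± 2.59 FPKM in the siNC libraries, against 6.44 ± 1.10 and 46.3 ± 15.6 FPKM in siCNN3. Slc2a1, the basal glucose transporter, stood at 81.0, 36.4 and 54.4 FPKM in the siNC libraries, against 38.2, 44.5 and 124.0 FPKM with siCNN3, with the high values in siNC replicate 1 and siCNN3 replicate 3. None of these was called by limma, and Ckmt1, the ubiquitous mitochondrial creatine kinase, and Slc2a3 were not listed.

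Fabp4, the fatty acid binding protein of fat cells and macrophages and a relative of Fabp3, was the only related gene that was called. It stood at 8.87, 8.09 and 10.9 FPKM in the siNC libraries, against 2.17, 2.97 and 3.13 FPKM with siCNN3, and the groups did not overlap. The mean fell to 29.6% of siNC, from 9.29 ± 1.46 to 2.75 ± 0.515 FPKM (SD, n = 3). On the log2 scale siCNN3 minus siNC came to -1.45 (standard error 0.178, 95% interval from -1.88 to -1.03), with an adjusted p of 0.0152 from limma. It was not called without siNC replicate 1 (adjusted p = 0.0543), siNC replicate 3 (0.0814), siCNN3 replicate 1 (0.0680) or siCNN3 replicate 2 (0.0747), all from limma. It was also not called with the replicate number as a block (adjusted p = 0.0557 from limma) or with each gene's own spread (0.109). Its log2 fold change ranged from -1.72 to -1.34 over 15 alternatives, of which those of filter, spread and block leave it at -1.45 by construction. None of 5 fat cell markers (Adipoq, Cfd, Plin1, Lep, Cidec) was listed. Of the markers of macrophages, Cd68 had 5.39, 3.62 and 3.60 FPKM with siNC and 1.96, 2.30 and 3.56 FPKM with siCNN3, and Lyz2 had 4.80, 1.65 and 1.13 FPKM with siNC and 0.848, 1.12 and 0.481 FPKM with siCNN3. Neither was called by limma (adjusted p = 0.312 and 0.342). The siCNN3 libraries lay wholly below the siNC libraries for both, as they did for 9.34% of all tested genes. Ptprc, another blood and immune marker, was not listed. The part of Cd68 and Lyz2 in the Fabp4 result was not tested. Fabp5, which is found in skin and many other cells, averaged 30.1 ± 6.77 FPKM (SD, n = 3) in the siNC libraries and 31.8 ± 0.497 FPKM (SD, n = 3) with siCNN3.

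**Figure D4:**
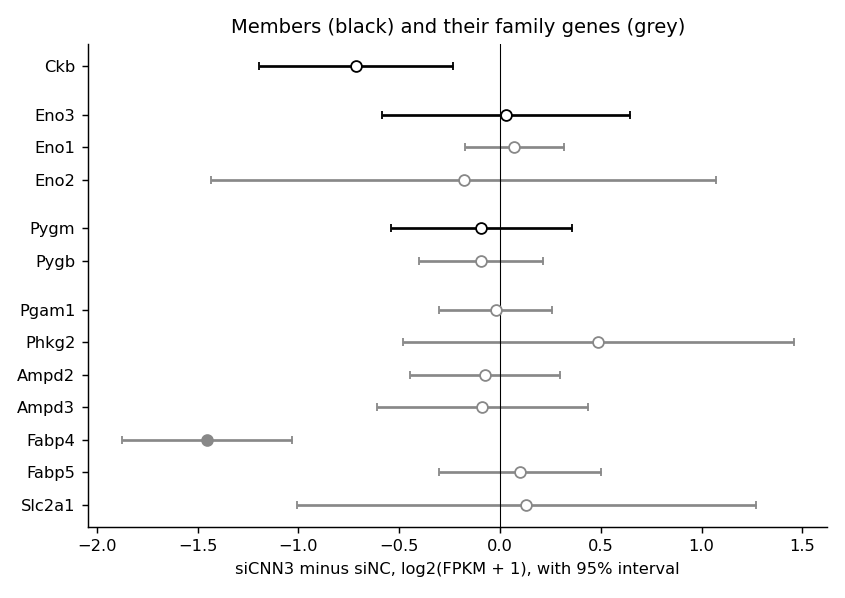
Difference between siCNN3 and siNC on log2(FPKM + 1), with 95% intervals from limma, for the 3 tested members (black) and the family genes (grey). A filled circle is a called gene. Fabp4 is the only filled circle, at -1.45, and the interval of Ckb, from -1.19 to -0.23, is the only other one that does not reach 0.

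Among 97 further genes of these pathways, in 7 lists, 87 were listed and 85 tested. Of these 0 were called higher and 1 lower by limma, and with an unadjusted p below 0.05 the counts were 4 higher and 7 lower, where 9.96% of all tested genes were higher and 6.14% lower at that p. The median log2 fold change was -0.05, with 48 of 85 genes below 0. The siCNN3 libraries lay wholly below the siNC libraries for 9 of them and wholly above for 7, where 9.34% of all tested genes lay wholly below and 13.8% wholly above. Without siNC replicate 1 and siCNN3 replicate 3, 4 were called (Fabp4, the adenylate kinase Ak1, Cpt1a and Acadm), where 7.59% of all genes tested in that fit were called. The 2 genes with the largest change are named for each list without a called gene.

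Creatine is made by Gatm and Gamt and taken up by Slc6a8. None of the 3 was called by limma, and 0 had an unadjusted p below 0.05. Gamt stood at 16.2, 12.6 and 15.5 FPKM in the siNC libraries, against 10.7, 12.9 and 13.0 FPKM with siCNN3 (a log2 difference of -0.25, standard error 0.152, adjusted p = 0.462 from limma). Slc6a8 stood at 22.3, 6.52 and 10.1 FPKM in the siNC libraries, against 10.3, 9.43 and 9.82 FPKM with siCNN3, with siNC replicate 1 above the other 5 libraries.

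Adenylate kinases rebuild ATP and AMP from ADP, and the purine nucleotide cycle removes AMP. The list had 11 tested genes, which include Aprt and Hprt, enzymes of purine salvage. Of these 11, 0 were called by limma, and the median log2 fold change was -0.07. At an unadjusted p below 0.05, 1 was higher, the salvage enzyme Hprt, and 2 were lower. The adenylate kinase Ak4, a mitochondrial matrix enzyme, had the largest difference, at 10.7, 8.27 and 0.921 FPKM in siNC and 0.765, 0.689 and 1.31 FPKM in siCNN3 (a log2 difference of -1.64, standard error 0.646, adjusted p = 0.280 from limma). The third siNC library lay within the range of siCNN3, and without it Ak4 was called (-2.45, adjusted p = 0.0422 from limma). Ak3, also of the mitochondrial matrix, stood at 13.7, 22.5 and 21.4 FPKM in the siNC libraries, against 17.7, 16.4 and 10.7 FPKM with siCNN3.

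Glycogen is built by glycogen synthase, cut by phosphorylase and tethered to membranes by Stbd1. Of 15 tested genes 0 were called by limma (1 higher at an unadjusted p below 0.05), with a median of -0.04. Stbd1 had the largest difference and stood at 24.3, 10.2 and 18.4 FPKM in the siNC libraries, against 39.1, 30.9 and 46.6 FPKM with siCNN3, so the groups did not overlap. On the log2 scale siCNN3 minus siNC came to 1.16 (standard error 0.311, 95% interval from 0.42 to 1.90), and it did not pass the threshold (adjusted p = 0.128 from limma). The next was Phkg2, with a log2 difference of 0.49 (standard error 0.409).

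The 20 glycolysis genes had a median of -0.02 and 0 calls by limma (1 higher and 1 lower at an unadjusted p below 0.05). Aldoc, the aldolase of brain, stood at 5.21, 1.86 and 4.40 FPKM in the siNC libraries, against 1.61, 1.48 and 4.52 FPKM with siCNN3. Pfkm, the muscle form of phosphofructokinase, stood at 53.5, 41.6 and 50.9 FPKM in the siNC libraries, against 27.7, 31.7 and 48.4 FPKM with siCNN3 (a log2 difference of -0.46, standard error 0.220, adjusted p = 0.362 from limma). Its highest siCNN3 library was the one with high Gpi1.

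The list of fatty acid uptake and oxidation had 15 tested genes and also holds Mb, the gene of the oxygen-binding protein myoglobin. Of the 15, 0 were called higher and 1, Fabp4, was called lower, with a median of -0.20. The siCNN3 libraries lay wholly below the siNC libraries for 6 of them, against 9.34% of all tested genes. Among them, named after their values were seen, Cpt1a, which admits fatty acids to mitochondria, had a log2 fold change of -0.48 (adjusted p = 0.101 from limma) and the dehydrogenase Acadm one of -0.57 (adjusted p = 0.111 from limma). Acadl, another acyl-CoA dehydrogenase, had a log2 difference of 0.46 (adjusted p = 0.0816 from limma).

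Among 8 tested genes of glucose transport and insulin signalling and 13 of energy sensing, 0 were called by limma, and 1 of the second list was lower at an unadjusted p below 0.05. The insulin receptor Insr stood at 6.60, 5.57 and 6.70 FPKM in the siNC libraries, against 1.59, 5.70 and 6.49 FPKM with siCNN3, with siCNN3 replicate 1 below the other 5 libraries. Irs1, its adaptor, had a log2 difference of 0.38 (standard error 0.217). Stk11, the kinase that activates AMP-activated kinase, had a log2 difference of 0.67 (standard error 0.381). Prkag2 is one of several gamma subunits of AMP-activated kinase, which sense AMP. It stood at 3.49, 4.22 and 4.79 FPKM in the siNC libraries, against 2.41, 2.55 and 1.85 FPKM with siCNN3 (a log2 difference of -0.66, standard error 0.171, adjusted p = 0.119 from limma).

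**Figure D5:**
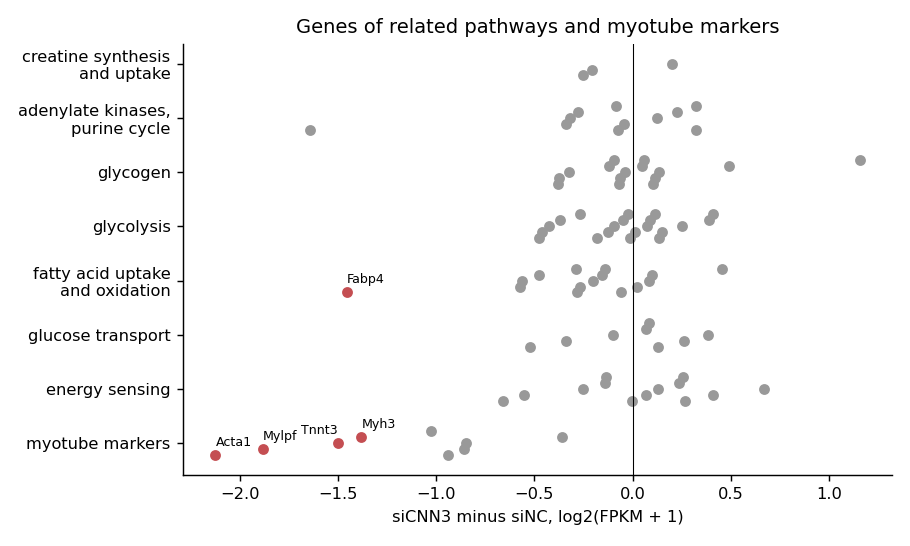
Difference between siCNN3 and siNC on log2(FPKM + 1) for each tested gene of the 7 pathway lists and for the 9 tested myotube markers. Red points with names are called genes and grey points are not; points are offset vertically for legibility. In the pathway lists only Fabp4 is called, and all 9 myotube markers lie below 0.

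Of 12 myotube markers 9 were listed, and 4 of these, Myh3, Acta1, Tnnt3 and Mylpf, were called lower, with log2 fold changes of -1.38, -2.12, -1.50 and -1.88, where 0.336% of all tested genes were called lower. Myog, Mymk, Mymx, Tnnc1 and Des did not pass the threshold (adjusted p from 0.114 to 0.196 from limma). For all 9 the siCNN3 libraries lay wholly below the siNC libraries, against 9.34% of all tested genes. Their summed FPKM ranged from 186.6 to 224.8 in siNC and from 110.8 to 127.3 in siCNN3. The largest part of that sum was Des, at 117.2 ± 6.89 and 91.3 ± 10.3 FPKM (SD, n = 3), with a log2 difference of -0.36. The markers Myh8, Actc1 and Ttn were not listed. Of 5 myoblast markers 4 were listed and 0 called, with a sum of 131.6 to 159.5 FPKM in siNC and 91.1 to 135.5 FPKM in siCNN3. Most of that sum was Itga7, an integrin subunit, which averaged 135.7 ± 15.5 and 90.1 ± 30.4 FPKM (SD, n = 3). Myf5, an early myogenic regulator, had 3.55, 5.64 and 4.84 FPKM with siNC and 13.0, 11.4 and 5.40 FPKM with siCNN3 (a log2 difference of 0.88), the regulator Myod1 averaged 2.37 ± 0.638 FPKM with siNC and 1.48 ± 0.103 FPKM with siCNN3 (SD, n = 3), with all siCNN3 libraries below the siNC libraries, and the cadherin Cdh15 averaged 5.39 ± 1.57 and 4.89 ± 1.28 FPKM (SD, n = 3). The part of the myotube markers in the values of Ckb and Ckm was not tested.

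Of 10 genes of the interferon response 8 were called higher, where 1.73% of all tested genes were. The sum of the 10 was 20.6, 361.9 and 97.4 FPKM in the siNC libraries, with replicate 2 above the others, and 1591 to 3326 FPKM in siCNN3. Of 5 blood and immune markers 4 were listed and 1, the haemoglobin gene Hbb-bs, was called lower, where 0.336% of all tested genes were. Their sum was 153.5 to 427.1 FPKM in siNC and 34.8 to 47.2 FPKM in siCNN3. Most of it was haemoglobin RNA, as Hbb-bs averaged 133 FPKM in siNC and 10.9 FPKM in siCNN3, and Hba-a1 106 and 27.3 FPKM. Of 5 smooth muscle markers 3 were listed and 0 called, with a sum of 303.4 to 463.6 FPKM in siNC and 217.9 to 248.4 FPKM in siCNN3. No call was made among the listed markers of osteoblasts (2 of 5), endothelium (1 of 5) or neurons (2 of 5). Their part in the members' values was not tested.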

How the data were processed

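RNA of C2C12 cells was sequenced for 3 siNC and 3 siCNN3 libraries, and the authors deposited FPKM for 24023 Ensembl transcripts. The submitters' processing notes name Bowtie 0.12.2, mm8 and mm10, and the program that estimated FPKM is not given in the sources used here. Identifiers without version were matched to GENCODE M21 transcripts of GRCm38 (23959 matched), and FPKM were summed for 11844 genes. The 64 that were not matched held 0.104% to 0.136% of a library's FPKM. The limma test (version 3.58.1, R 4.3.3) used log2(FPKM + 1) of genes averaging 0.5 FPKM or more (trend, Benjamini-Hochberg adjustment, threshold 0.05) and was tested on simulated data. Shares and single genes were compared by two-sided exact permutation tests in scipy 1.17.1. Depth is unknown, so no counting error is given. Members and lists were chosen with earlier results of these data known. Named were members, their families, called related genes, the 2 largest changes of each list without a call, Cnn3, marker genes and the 5 genes nearest in profile to Ckm and to Eno3. Gpi1, Gapdh, Eno1b, Ak1, Aprt, Hprt, Cpt1a, Acadm, Acadl and Mb fall outside this rule and were chosen after their values were seen. Alternatives were another pseudocount, filter, scaling or spread, the replicate block, single transcripts and each library left out. Leaving out siNC replicate 1 and siCNN3 replicate 3 together, and Eno1b in the enolase sum, were added after the data were seen.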

Additional observations from a re-analysis of the deposited data

How the results depend on the processing

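In all, 240 genes were called with all libraries. The count was 68 with the replicate block, 0 with each gene's own spread, 881 with 2 libraries a group (siNC replicate 1 and siCNN3 replicate 3 left out together, chosen after the data were seen) and 20 to 609 when single libraries were left out. With quantile normalization 200 genes were higher and 93 lower, against 201 and 39. The number of members called was 0, and 1 with 2 libraries a group, where the log2 fold change of Ckb was -0.97. Related genes called were 1 with all libraries, 2 with median-of-ratios scaling and 2 with quantile normalization (Fabp4 and Cpt1a each time), 0 with the replicate block, 0 with each gene's own spread, 4 with 2 libraries a group, and 0 to 2 when single libraries were left out (Ak4 in place of Fabp4 without siNC replicate 3). The log2 fold change of Eno3 reversed under median-of-ratios scaling (-0.0076), quantile normalization (-0.0787) and 2 libraries a group (-0.0441). Leaving out single libraries gave -0.21 to 0.25 for Eno3 and -0.19 to 0.0325 for Pygm (the highest without siCNN3 replicate 3). With 1 FPKM added the difference in the share of Ckm was -0.103 percentage points, as the added value exceeds Ckm itself. Where no cause is given, it was not tested. Deviations of same-numbered libraries correlated at -0.277, 0.314 and -0.0243, and those of differently numbered libraries at -0.445 to 0.441. The numbers were therefore not taken as pairs. With the block the log2 fold change of Ckb was -0.71 (adjusted p = 0.173 from limma).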

Other observations

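The 5 genes whose differences from the siNC mean on log2(FPKM + 1) were nearest to those of Ckm over the 6 libraries were Hpgd, Atp13a3, Chrng, Fam102a and Myo10. For Hpgd, a prostaglandin dehydrogenase, the root mean square difference was 0.0918, with 6.06, 7.91 and 5.95 FPKM in siNC and 3.75, 4.26 and 3.71 FPKM in siCNN3. Chrng, the fetal subunit of the muscle acetylcholine receptor, stood at 1.05, 1.48 and 0.987 FPKM in the siNC libraries, against 0.167, 0.241 and 0.323 FPKM with siCNN3. The 5 nearest to Eno3 were Gm2115, Churc1, Zbtb45, Lipt2 and Osbpl10. For Gm2115 the root mean square difference was 0.0495, with 12.3, 23.3 and 18.1 FPKM in siNC and 18.6, 20.1 and 14.3 FPKM in siCNN3. These genes were picked from all tested genes for likeness over 6 libraries, and the likeness is a description.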
